A study of Mus musculus with 15 samples.

Results

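Genes that mark cerebellar GABAergic interneurons were followed through purified granule neuron precursors and medulloblastoma cells of the mouse: Pax2, Gad1, Gad2, Slc32a1, Slc6a5, Lhx1, Lhx5, Tfap2b and Pvalb. These 9 genes were taken by name, 9 of the 21889 genes of the deposited gene counts, and all 9 were measured and passed the filter on low counts. The study sequenced poly(A) RNA in 15 libraries, 3 for each of 5 groups, to follow gene expression during granule neuron differentiation and in tumours. Cells labelled as granule neuron precursors, the dividing cells that form granule neurons, came from the cerebellum of mice labelled Math1-GFP at E15.5 and of mice labelled WT at the postnatal days P1, P7 and P14 (E is embryonic day). Cells labelled medulloblastoma (MB), a cerebellar tumour, came from Ptch1 heterozygous mice, for which the labels give no age. All groups were purified on Percoll, a density gradient that enriches cells without sorting them on a marker, so cells of other types can remain. At E15.5 the genotype label and the age change together and cannot be told apart. The labels do not say whether replicates came from separate animals, so p-values measure only the spread between these libraries, which may be technical.

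The libraries held 12597472 to 43443132 counts in genes. Levels are given as CPM, a gene's counts scaled to a common library size after TMM, a correction for composition. Markers of the labelled lineage were checked by their sum: the summed level of 11 granule lineage genes lay between 2722 and 6101 CPM in all 15 libraries, with 1 of the 11 at 0 counts at E15.5 and 1 under 1 CPM in MB. The library labelled P1 replicate 3 stood apart, with 3913 CPM over 6 oligodendrocyte markers against 142 and 632 CPM in the other P1 libraries and 6323 to 6875 CPM at P14. Where leaving it out changed a result named here by over 1.5 times or ended a call, this is stated beside it.

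GABAergic interneurons of the cerebellum (stellate, basket and Golgi cells among them) do not belong to the granule lineage. They arise from Ptf1a-expressing progenitors of the ventricular zone, as Purkinje cells do, and their dividing precursors carry the paired-box factor Pax2 as they migrate through the white matter. Granule neuron precursors arise instead from the rhombic lip under Atoh1. In GABAergic neurons Gad1 and Gad2 make GABA, Slc32a1 loads GABA and glycine into synaptic vesicles, and Slc6a5 takes up glycine at glycinergic terminals. In bulk samples such as these, fewer cells of a type and less RNA per cell cannot be told apart.

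Promoter sequences were read from RefSeq (GRCm38.p6), which held 12 windows for 8 of the 9 genes, each with 250 bases before and 50 after an annotated start. Lhx5 had no entry. Those of 3 genes are shown because the results turn on them: Gad1 and Slc32a1, which fell to a small fraction of their normal level in the tumour cells, and Lhx1, which did not. Only the 250 bases before the start are printed, 5′ to 3′ along the gene's own strand, with every CG dinucleotide in capitals. They lie upstream of the first exon at chr2:70561879-70562128 (plus strand) for Gad1, chr2:158610508-158610757 (plus strand) for Slc32a1 and chr11:84525535-84525784 (minus strand) for Lhx1.
Gad1: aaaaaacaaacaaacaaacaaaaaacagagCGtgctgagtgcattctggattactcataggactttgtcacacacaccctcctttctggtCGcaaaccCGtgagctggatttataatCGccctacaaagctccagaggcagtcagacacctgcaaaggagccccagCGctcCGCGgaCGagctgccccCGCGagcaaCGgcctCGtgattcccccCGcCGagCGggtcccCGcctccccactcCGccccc
Slc32a1: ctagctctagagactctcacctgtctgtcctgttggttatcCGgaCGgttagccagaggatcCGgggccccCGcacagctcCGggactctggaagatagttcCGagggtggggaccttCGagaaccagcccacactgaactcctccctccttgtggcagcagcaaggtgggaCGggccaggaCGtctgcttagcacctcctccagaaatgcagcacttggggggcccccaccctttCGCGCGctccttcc
Lhx1: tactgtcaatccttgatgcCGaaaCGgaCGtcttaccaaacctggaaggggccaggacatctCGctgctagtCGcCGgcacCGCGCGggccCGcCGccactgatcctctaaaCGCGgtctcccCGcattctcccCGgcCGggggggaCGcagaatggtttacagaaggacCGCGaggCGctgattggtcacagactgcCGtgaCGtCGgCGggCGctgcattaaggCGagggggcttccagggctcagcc
These 250 bases hold 17 CG in Gad1, 12 in Slc32a1 and 26 in Lhx1. Over the whole windows of 300 bases, the median of all 32851 windows was 7 CG, and 43.5% of them held 10 or more. Among the 12 windows of the listed genes 8 did. All 3 printed windows were above that median. Of the listed genes' windows, 1 each of Pax2 (7 CG), Slc6a5 (7) and Pvalb (5) was not, and every other one was. Whether CG content goes with the change in tumour cells was not tested. The letters CAGCTG, an E-box of the kind bound by basic helix-loop-helix factors, stood in 1 of the 12 windows against 16.3% of all windows. TGGGAA on either strand, the core letters of Rbpj motifs (Rbpj is a partner of Ptf1a), stood in 4 of the 12 against 25.6%. A match is a description of the letters, not of binding.

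The GABA synthesis and transport genes were highest at E15.5 and nearly absent from the tumour libraries. Gad1 (ENSMUSG00000070880), the glutamate decarboxylase found throughout the cell body, lies in mm9 on chromosome 2 from 70391129 to 70440071 on the plus strand. It measured 147, 103 and 136 CPM at E15.5, 78.6, 63.0 and 69.5 CPM at P1, 96.5, 76.6 and 79.7 CPM at P7, and 51.1, 38.0 and 58.9 CPM at P14. In MB the levels were 2.26, 1.54 and 0.961 CPM. Every E15.5 library was above every later one, every P14 library was below every P1 and P7 library, and the highest tumour library was below the lowest normal one. Gad2 (ENSMUSG00000026787; chromosome 2, 22477725 to 22549394, plus strand), the glutamate decarboxylase of synaptic terminals, measured 66.1, 65.0 and 76.6 CPM at E15.5 and 14.6, 11.5 and 18.7 CPM at P1. It stood at 23.5, 22.4 and 23.9 CPM at P7, 16.7, 11.5 and 17.0 CPM at P14 and 0.516, 0.122 and 0.360 CPM in MB. Its drop was concentrated before P1, and its P1 and P14 libraries overlapped.

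Slc32a1 (ENSMUSG00000037771; chromosome 2, 158436503 to 158441484, plus strand), the vesicular GABA and glycine transporter, measured 116, 89.9 and 144 CPM at E15.5, 33.3, 26.4 and 23.2 CPM at P1, 41.5, 25.4 and 41.9 CPM at P7, and 20.2, 17.4 and 28.4 CPM at P14. In MB it was at 0.159, 0.195 and 0.160 CPM, from 16 counts over the 3 libraries. The embryonic libraries again stood above all others, while the 3 postnatal ages overlapped in part. Slc6a5 (ENSMUSG00000039728; chromosome 7, 57165516 to 57219226, plus strand), the neuronal glycine transporter carried by Golgi cells among others, was lower and flatter: 31.4, 24.2 and 15.6 CPM at E15.5, 16.0, 13.6 and 13.9 CPM at P1, 16.3, 20.9 and 19.5 CPM at P7, and 11.6, 9.01 and 10.6 CPM at P14. Its MB libraries held 7 counts in all (0.0489 to 0.119 CPM).

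Of the transcription factors, Pax2, Lhx5 and Tfap2b fell with age and were all but lost from tumour cells. Pax2 (ENSMUSG00000004231; chromosome 19, 44830539 to 44912758, plus strand), the marker of interneuron precursors, measured 139, 113 and 87.5 CPM at E15.5 and 70.3, 46.8 and 30.2 CPM at P1. It stood at 39.5, 41.4 and 109 CPM at P7 and 23.9, 14.6 and 21.8 CPM at P14, and the 3 MB libraries held 1 count together. P7 replicate 3 was high for its age and overlapped the embryonic libraries, and the P14 libraries were below all others of normal cells.

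Lhx5 (ENSMUSG00000029595; chromosome 5, 120881779 to 120891464, plus strand), a LIM-homeodomain factor of early Purkinje cells and interneurons, followed the same course, with 110, 79.8 and 124 CPM at E15.5, 58.8, 50.7 and 24.0 CPM at P1, 43.0, 40.2 and 84.8 CPM at P7, and 18.6, 17.9 and 26.4 CPM at P14. Its MB libraries held 10 counts (0.0397 to 0.171 CPM). P7 replicate 3 was again the highest postnatal library. Tfap2b (ENSMUSG00000025927; chromosome 1, 19198995 to 19228815, plus strand), an AP-2 factor of the GABAergic lineage, went from 232, 210 and 165 CPM at E15.5 through 110, 88.2 and 44.1 CPM at P1 and 46.3, 68.3 and 78.9 CPM at P7 to 16.5, 8.35 and 15.04 CPM at P14, with 4 counts in MB. Every P14 library was below every earlier one.

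Lhx1 (ENSMUSG00000018698; chromosome 11, 84331479 to 84339517, minus strand), the close relative of Lhx5, went the other way. It measured 85.3, 102 and 89.9 CPM at E15.5, 145, 138 and 180 CPM at P1, 234, 204 and 338 CPM at P7, 226, 163 and 204 CPM at P14, and 369, 318 and 372 CPM in MB. All later libraries were above all embryonic ones, and 1 of the 9 normal libraries after birth, P7 replicate 3, reached into the tumour range. A pair of shorter transcripts annotated inside Lhx1, counted separately in the deposited transcript table, had the same order: the one of 766 bases held 19.0, 24.0 and 21.2 CPM at E15.5 and 105, 94.4 and 105 CPM in MB, and the one of 382 bases 9.60, 9.69 and 10.3 CPM against 85.6, 51.4 and 57.4 CPM. Reads over them also count for the long transcript.

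Pvalb (ENSMUSG00000005716; chromosome 15, 78021544 to 78034667, minus strand), the calcium-buffering protein of mature molecular layer interneurons and Purkinje cells, varied much between libraries of 1 group. It measured 96.9, 69.6 and 178 CPM at E15.5, 4.51, 6.28 and 16.0 CPM at P1, 38.3, 8.002 and 11.9 CPM at P7, 24.3, 24.6 and 37.6 CPM at P14, and 5.28, 3.20 and 3.48 CPM in MB. The lowest embryonic library was above every later one. Pvalb was thus high at E15.5, low at P1 and between these at P14. Because its highest level was at the youngest age, it is not read here as a measure of mature interneurons. Which cells carried it at E15.5 was not tested.

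**Figure D1:**
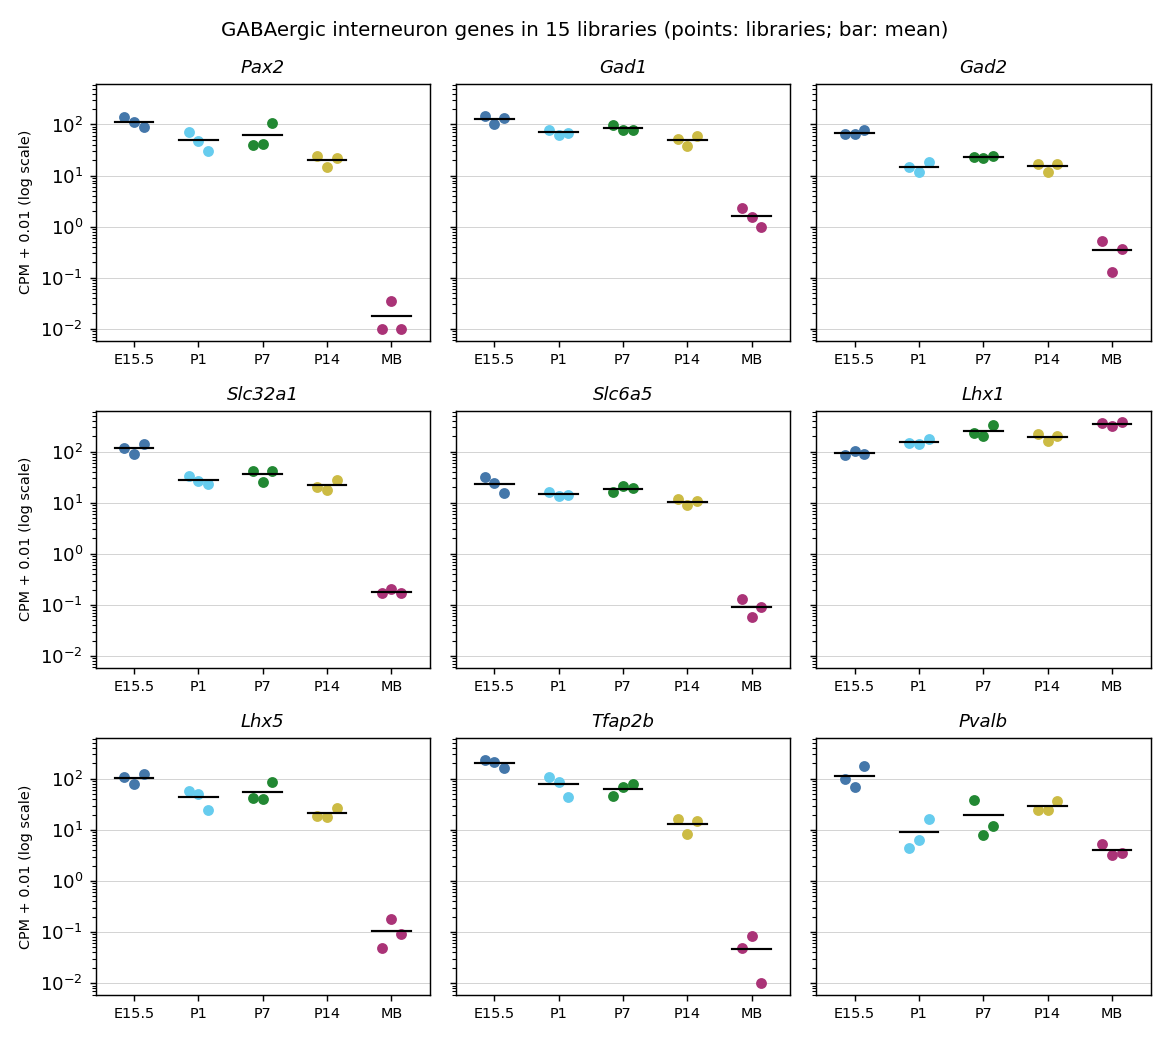
Level of each of the 9 genes in each of the 15 libraries, as CPM plus a small offset for zeros on a log axis, by group; points are libraries and bars are means of 3. Lhx1 rises from 85.3 to 102 CPM at E15.5 to 318 to 372 CPM in MB, while the other 8 genes are highest at E15.5 on average and lowest in MB.

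In P1 against E15.5, all 9 genes changed, 8 down and 1 up, at an FDR under 0.05 (edgeR quasi-likelihood test, Benjamini-Hochberg over 15259 genes), where 46.3% of all genes tested were called, 20.9% lower and 25.4% higher. The median log2 fold change of the 9 was -1.23, against 0.03 over all genes tested. Pvalb fell most, with a log2 fold change of -3.68 (SE 0.60, FDR 1.89e-04), a 12.8-fold drop. Without P1 replicate 3 the value for Pvalb was -4.41 (FDR 1.70e-04), and within the set of 9 libraries, described below, it was -2.96. Gad2 (-2.21, SE 0.29, FDR 2.98e-05) and Slc32a1 (-2.08, SE 0.25, FDR 1.55e-05) fell more than 4-fold. Tfap2b (-1.32), Lhx5 (-1.23) and Pax2 (-1.21) fell 2.31- to 2.5002-fold, and Gad1 fell 1.83-fold (-0.87, SE 0.24, FDR 0.00798). Slc6a5 fell 1.64-fold with overlapping libraries (-0.71, SE 0.25, FDR 0.0299). Lhx1 alone of the 9 rose, by 1.67-fold (0.74, SE 0.20, FDR 0.00698).

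The 2 weakest of these calls depended on single libraries. Slc6a5 was not called without E15.5 replicate 1 (-0.46, FDR 0.172), without E15.5 replicate 2, without P1 replicate 2 or without P1 replicate 3, nor with only the 2 groups compared (FDR 0.0760) or in the start site model table (FDR 0.0531). Pax2 was not called without E15.5 replicate 1 (-1.03, FDR 0.0658), P1 replicate 2 or P1 replicate 3. The libraries also fall into 2 sets by how 1 gene, Tsnax, was counted, but the 9 genes' counts in the gene table stood at a like percentage of those over their most counted transcript, 93.9% to 113% in 6 libraries and 94.3% to 112% in the other 9 (where a gene had at least 40 counts). Within the set of 9, E15.5 has 1 library that was assumed to vary like the others, so no count of calls is given. The log2 fold changes of Gad1 (-0.56), Lhx1 (0.60) and Lhx5 (-0.85) were smaller there than with all libraries (-0.87, 0.74 and -1.23). With 1 embryonic library, that fit cannot decide whether the calls of these genes would hold.

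From P1 to P7 none of the 9 genes passed the threshold in edgeR, where 3.15% of all genes did (1.40% higher, 1.74% lower), 2 of the 9 had an unadjusted p under 0.05 and DESeq2 called 1. That gene was Lhx1, whose P7 libraries all lay above its P1 libraries (log2 fold change 0.75, FDR 0.0535 in edgeR and 0.0158 in DESeq2). It was called in edgeR without P1 replicate 3 (0.87, FDR 0.0359). The other fold changes ran from -0.33 for Tfap2b (FDR 0.628) to 1.12 for Pvalb (FDR 0.276), with a median of 0.38 over the 9 genes against -0.01 over all. With 1 library left out the value for Pvalb ran from 0.17 to 1.85, highest without P1 replicate 3. All P7 libraries belong to the set of 6 and all P1 libraries to the set of 9, so counting set and age cannot be told apart in this comparison or in P14 against P7.

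From P7 to P14 the transcription factors Tfap2b, Pax2 and Lhx5 fell again. Tfap2b fell 4.85-fold (log2 fold change -2.28, SE 0.34, FDR 0.00552), Pax2 3.15-fold (-1.65, SE 0.39, FDR 0.0190) and Lhx5 2.67-fold (-1.42, SE 0.35, FDR 0.0230). Slc6a5 fell 1.82-fold (-0.86, SE 0.25, FDR 0.0410). These 4 of 9 were called where 10.3% of all genes were, 4.51% lower and 5.81% higher. Gad1 (-0.77, FDR 0.0520) had no overlap between the ages but missed the threshold. Slc32a1 stood at -0.72 (FDR 0.0710), Gad2 at -0.63 (FDR 0.155), Lhx1 at -0.39 (FDR 0.214) and Pvalb at 0.57 (FDR 0.521). The median of the 9 was -0.77 against -0.0050 over all genes.

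Tfap2b kept its call when any 1 library of these ages was left out, and the other 3 did not. Only Tfap2b was called without P7 replicate 3, P14 replicate 1 or P14 replicate 2. Over all genes 6.12%, 2.80% and 0.81% were called in these fits, against 10.3% with all libraries. Without P7 replicate 3, the library with high Pax2 and Lhx5, the values were -1.01 for Pax2 (FDR 0.0715) and -0.99 for Lhx5 (FDR 0.0855). The count was 2 without P7 replicate 2 or P14 replicate 3, and 4 without P7 replicate 1. There 1.02%, 2.87% and 6.96% of all genes were called. Calls over all genes were thus fewer in each of these fits.

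Over the whole postnatal span, P14 against P1, 2 of the 9 genes fell, where 5.31% of all genes were called lower, 3.63% higher and 8.94% in either direction. Tfap2b fell 6.09-fold (-2.61, SE 0.35, FDR 9.48e-04) and Pax2 2.44-fold (-1.29, SE 0.38, FDR 0.0493). Pax2 sat at the threshold and lost its call without P1 replicate 1, P1 replicate 2 or any P14 library, which left 1 gene called. Over all genes 0.997% to 1.90% were called in these fits. Lhx5 stood at -1.09 (FDR 0.0625) and Pvalb at 1.69 (FDR 0.0698), with all P14 libraries above all P1 libraries for Pvalb. Gad2 stood at 0.01 (FDR 0.985).

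Without P1 replicate 3, the library that stands apart, 4 genes were called in this comparison, where 17.5% of all genes were: Pvalb higher (2.42, FDR 0.0130) and 3 lower, with Lhx5 at -1.39 (FDR 0.00902). Within the set of 9 libraries, which holds all of P1 and P14, 5 were called, 1 higher and 4 lower, where 30.3% of all genes were called. Pvalb was the higher one (1.67, FDR 0.0229), and Slc6a5 (-0.49, FDR 0.0432) and Lhx5 (-1.10, FDR 0.0305) joined Tfap2b and Pax2. The median of the 9 genes was -0.48 in the fit of all libraries, against 0.01 over all genes.

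**Figure D2:**
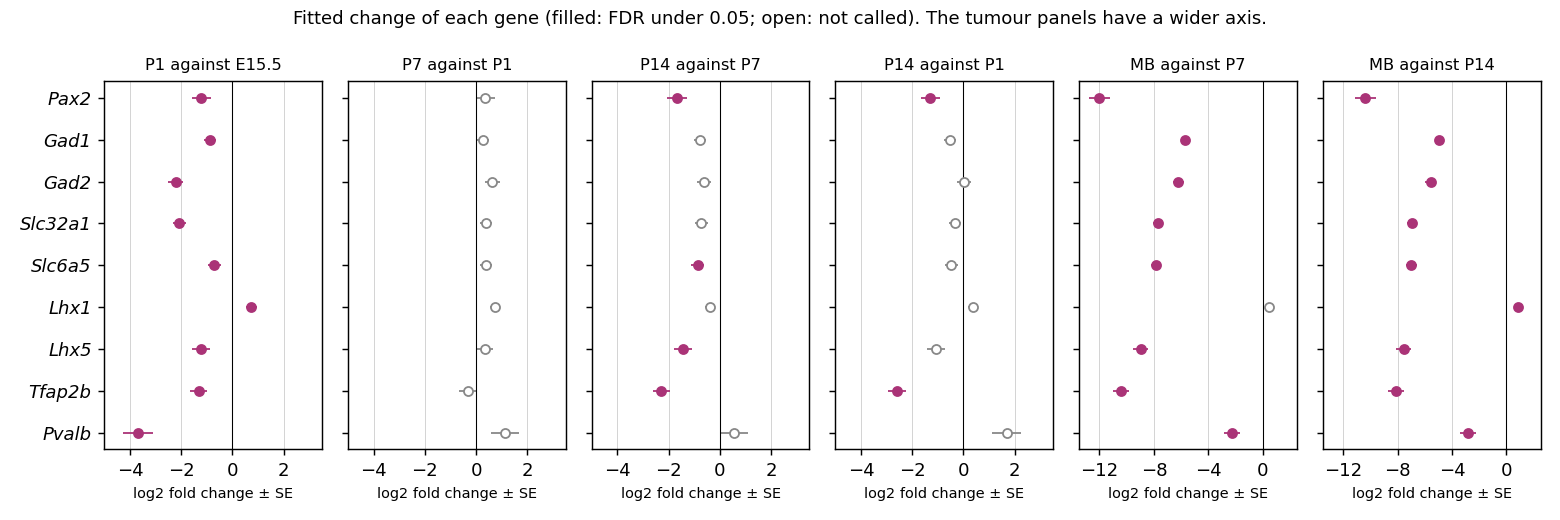
Fitted log2 fold change of each of the 9 genes in the 6 comparisons, with its SE; filled points passed an FDR under 0.05, and the tumour panels have a wider axis. Lhx1 lies above 0 in P1 against E15.5 and in MB against P14, where the other 8 genes all lie below 0.

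In tumour cells 8 of the 9 genes fell relative to P7, the age the study takes as the normal counterpart, where 34.5% of all genes were called, 20.7% lower and 13.7% higher. The median log2 fold change was -7.66 against 0.02 over all genes. Because the tumour counts were so few, the changes are given as ratios of summed counts, scaled for library size, with an exact 95% interval (conditional binomial) that covers counting error only. Gad1, with 144 tumour counts, was 53.5 times higher at P7 (45.3 to 63.5), and Gad2, with 27, was 78.3 times higher (53.7 to 119). Slc32a1 was 202 times higher at P7 (124 to 355) and Slc6a5 246 times (119 to 613).

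The factors Lhx5, Tfap2b and Pax2 also had few tumour counts. Lhx5 was 485 times higher at P7 (263 to 1012), Tfap2b 1442 times (563 to 5295) and Pax2, with 1 tumour count against 5676 at P7, 5365 times (962 to 211936). That 1 count came from MB replicate 2. The tests gave FDRs of 3.84e-08 for Pax2, 7.23e-09 for Gad1, 2.82e-08 for Gad2, 4.62e-09 for Slc32a1, 5.32e-09 for Slc6a5, 2.91e-08 for Lhx5 and 1.41e-08 for Tfap2b. In these 7 genes every tumour library lay below every normal library of every age. The share of all genes that did so is not given here, so this describes these genes only.

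Pvalb was the least reduced of the 8, 5.14 times higher at P7 by summed counts (4.58 to 5.77) and -2.29 on the log2 scale (SE 0.58, FDR 0.00607). That call rested on P7 replicate 1, without which it was -1.28 (FDR 0.0609). Lhx1 was not called (0.45, SE 0.20, FDR 0.0945), with overlapping libraries. Without P7 replicate 3 it was higher in tumour cells at 0.69 (FDR 0.0141).

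Against P14 all 9 genes changed, 8 lower and Lhx1 higher, where 50.0% of all genes were called, 27.2% lower and 22.9% higher. Lhx1 rose 1.79-fold (log2 fold change 0.84, SE 0.20, FDR 0.00262), with no overlap. Gad1 was 31.0 times higher at P14 than in tumour cells by summed counts (26.2 to 36.8), Slc32a1 124 times (76.3 to 218), Lhx5 190 times (103 to 397), Tfap2b 299 times (116 to 1098) and Pvalb 7.45 times (6.66 to 8.35). The 2 tumour comparisons share the tumour libraries, so they are not independent. All 9 calls against P14 held when any 1 of the 6 libraries was left out, and within the set of 9 libraries. Over all genes 41.8% to 50.4% were called in the former fits and 61.8% in the latter.

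The summed level of the 8 genes other than Lhx1 leaves out the gene that went the other way, so it describes those 8 only. It was 939, 755 and 926 CPM at E15.5, 387, 307 and 240 CPM at P1, 345, 303 and 449 CPM at P7, 183, 141 and 216 CPM at P14, and 8.41, 5.37 and 5.12 CPM in MB. P1 and P7 overlapped, and the other neighbouring groups did not. With Lhx1 included, the sum of the 9 genes was 1024, 856 and 1016 CPM at E15.5 and 531, 445 and 420 CPM at P1. It was 579, 507 and 787 CPM at P7, 409, 305 and 420 CPM at P14, and 378, 323 and 377 CPM in MB. P14 and MB thus overlapped in the sum of all 9, and Lhx1 alone made up nearly all of the tumour sum.

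**Figure D3:**
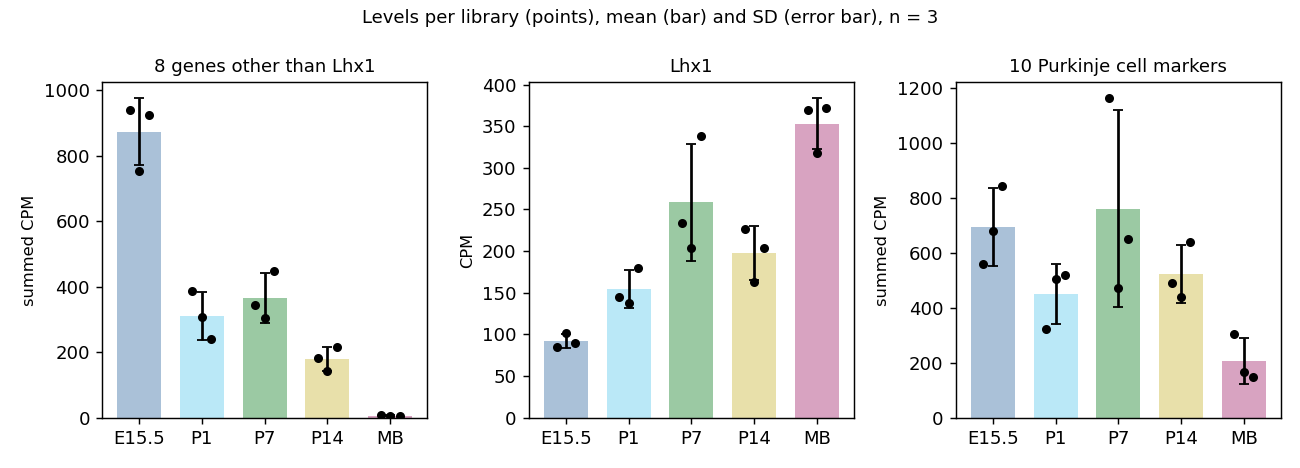
Summed CPM of the 8 genes other than Lhx1 (left), CPM of Lhx1 (middle) and summed CPM of 10 Purkinje cell markers (right) by group, on linear axes from 0; points are libraries, bars means of 3 and error bars the SD. The 8 genes go from 755 to 939 CPM at E15.5 to 5.12 to 8.41 CPM in MB, Lhx1 is highest on average in MB, and P7 replicate 1 holds the highest Purkinje sum (1163 CPM).

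Per kilobase of exon, which allows levels to be compared between genes, the order of the 9 changed with age. At E15.5 Pvalb led with 118 ± 57.8 CPM per kilobase (SD, n = 3). Slc32a1 (41.7), Lhx5 (36.6), Tfap2b (31.6), Gad1 (27.1), Pax2 (23.8) and Lhx1 (19.2) followed, each overlapping its neighbour in this order, and Gad2 (12.1) and Slc6a5 (3.36) came last and stood apart. At P1 Lhx1 led alone with 32.0 CPM per kilobase, above 6 genes between 15.6 (Lhx5) and 9.14 (Pvalb) whose neighbours overlapped. At P7 Lhx1 led alone with 53.7, above Pvalb at 19.8 and Lhx5 at 19.6. At P14 Lhx1 (41.0) and Pvalb (29.5) overlapped and stood above Gad1 at 10.4. In MB Lhx1 stood at 73.3 ± 6.31 CPM per kilobase (SD, n = 3), Pvalb at 4.08, Gad1 at 0.335, and Slc32a1 at 0.0613.

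Ratios between related genes moved within this order. Lhx1 over Lhx5, per kilobase, was 0.460, 0.753 and 0.430 at E15.5, 1.45, 1.61 and 4.43 at P1, 3.22, 3.00 and 2.36 at P7, and 7.19, 5.39 and 4.58 at P14. Lhx5 was thus the more abundant of the 2 LIM factors in all E15.5 libraries and Lhx1 in all later ones. Gad1 over Gad2 was 2.69, 1.92 and 2.15 at E15.5 and 6.51, 6.66 and 4.50 at P1, with 3.72 to 4.98 at P7 and P14. Tfap2b over Pax2 was 1.24, 1.38 and 1.40 at E15.5 and 0.515, 0.426 and 0.516 at P14.

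Beside these falls, a list of other genes linked to the GABAergic lineage was read. This list, called lineage factors here, mixes Ptf1a with cofactors, corepressors and a cell-surface protein. Its counts are therefore not a measure of early lineage factors alone. Of 13 lineage factors other than the 9 genes, all tested, 5 rose and 3 fell from E15.5 to P1, where 46.3% of all genes were called, with a median log2 fold change of 0.03. Among the best expressed of those called were Kirrel2, a cell-surface target of Ptf1a, which rose from a mean of 12.3 ± 9.63 CPM at E15.5 to 49.3 ± 25.0 CPM at P1 (SD, n = 3) with overlapping libraries (1.98, FDR 0.00423; 2.76 without E15.5 replicate 3), and the LIM-factor cofactors Ldb1 (-1.33, FDR 9.88e-06) and Ssbp3 (-1.26, FDR 1.35e-04), which fell. Ptf1a itself, named after its values were seen, measured 0.567, 0.251 and 1.81 CPM at E15.5, 11.2, 10.002 and 4.03 CPM at P1, 5.85, 3.97 and 6.78 CPM at P7, and 0.641, 0.332 and 0.769 CPM at P14. Its P1 and P7 libraries were all above its E15.5 and P14 libraries, a course that none of the 9 genes had.

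From P1 to P7, 2 of the 13 rose (Ssbp3 0.77, FDR 0.0460, and Ldb1 0.67, FDR 0.0314) and none fell, where 3.15% of all genes were called. Neither call held when P1 replicate 1, P1 replicate 2 or a P7 library was left out, and without P1 replicate 3 Ssbp3 was called (0.86, FDR 0.0403) and Ldb1 was not (0.59, FDR 0.0585). From P7 to P14, where 10.3% of all genes were called, 5 fell and none rose, with a median of -1.71. Among them Kirrel2 fell 6.18-fold (-2.63, FDR 0.00952) and Neurog2, a proneural factor, 4.38-fold (-2.13, FDR 0.00873). Ldb1 fell 1.43-fold (-0.52, FDR 0.0435). Without P14 replicate 2, 1 of the 13 was called, and 4 without any other library of these ages. Over all genes 0.81% were called without P14 replicate 2 and 1.02% to 6.96% in the others. P14 against P1 called 4 of the 13, all lower, where 8.94% of all genes were called. Ptf1a fell 14.5-fold (-3.85, FDR 0.00244), Kirrel2 7.03-fold (FDR 0.00645) and Neurog2 5.01-fold (FDR 0.00418). Kirrel2 missed the threshold without P14 replicate 2 (-2.61, FDR 0.0552). Within the set of 9 libraries 8 of the 13 were called, where 30.3% of all genes were.

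In tumour cells 8 of the 13 lineage factors were lower than at P7 and none higher, where 34.5% of all genes were called. Kirrel2 was 394 times higher at P7 by summed counts (214 to 823). Skor1, a transcriptional corepressor, fell 5.08-fold (-2.35, FDR 0.00613; -3.75 without MB replicate 3), and Ssbp3 1.85-fold (-0.89, FDR 0.00227). Ptf1a had 1 count in the 3 tumour libraries against 520 at P7. Against P14, 6 fell and Ldb1 rose (0.65, FDR 0.00245), where 50.0% of all genes were called. Skor2, a corepressor of the Purkinje lineage, had no tumour count and was at least 49.8-fold lower than at P14, taking 3 counts over the group as the floor.

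The 3 tumour libraries differed from each other in some of these factors. Prdm13, a Ptf1a target named after its values were seen, measured 0.278, 14.5 and 19.7 CPM, Tfap2a, the relative of Tfap2b and likewise named afterwards, 0.0793, 0.0733 and 31.9 CPM, and Skor1 2.14, 6.28 and 25.5 CPM. MB replicate 3 was the highest for all 3 genes. In that library Pax2 and Tfap2b were at 0 counts.

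**Figure D4:**
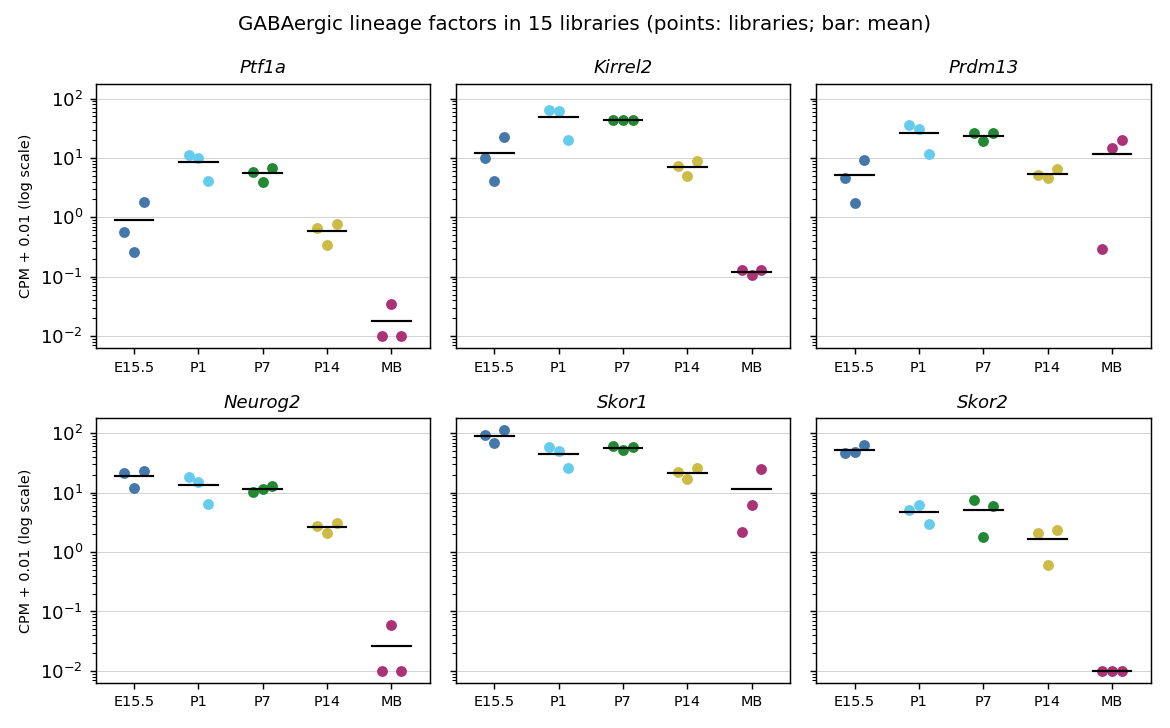
CPM per library, plus a small offset for zeros, of 6 GABAergic lineage factors on a log axis, by group; points are libraries and bars are means of 3. Ptf1a and Kirrel2 have higher means at P1 and P7 than at E15.5 and P14, and Prdm13 is at 0.278 CPM in MB replicate 1 and 14.5 and 19.7 CPM in the others.

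The other GABA and glycine pathway genes were called about as often as all genes. Of 15 other pathway genes (transporters, degrading enzymes, receptor anchors and chloride carriers), 5 rose and 1 fell from E15.5 to P1, where 46.3% of all genes tested were called (25.4% higher, 20.9% lower), with a median of 0.45. Slc6a11, the GABA transporter GAT-3 carried mainly by astroglia, rose 10.8-fold (log2 fold change 3.43, FDR 1.40e-06). Slc12a2, the chloride importer NKCC1, rose 3.44-fold (1.78, FDR 2.91e-05), and Aldh5a1, of GABA breakdown, 1.96-fold (0.97, FDR 7.20e-04). Glra2, a glycine receptor subunit of immature neurons, fell 6.20-fold, with 112 ± 17.9 CPM at E15.5 and 18.1 ± 6.78 CPM at P1 (SD, n = 3; -2.63, FDR 9.29e-05). Astroglial markers moved the same way as Slc6a11: 7 of them summed to 330 to 488 CPM at E15.5 and 2827 to 4308 CPM at P1, and their part in the result was not tested.

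After birth the pathway calls were few, as were those over all genes: 3.15%, 10.3% and 8.94% were called in P7 against P1, P14 against P7 and P14 against P1. None of the 15 was called from P1 to P7 in edgeR, with 1 at an unadjusted p under 0.05 and 1 called by DESeq2, and the best expressed, Slc38a1 (0.08, FDR 0.871) and Nlgn2 (0.36, FDR 0.621), were among the uncalled. Slc12a2 rose from P7 to P14 (0.74, FDR 0.0494), a call that no fit kept when 1 library was left out, and Slc6a11 was lower at P14 than at P1 (-1.03, FDR 0.0401). The latter was the only pathway call of that comparison. Leaving out P1 replicate 3 gave 4 calls there, leaving out any other library gave 0, and the set of 9 libraries gave 4. Over all genes 17.5%, 0.997% to 1.90% and 30.3% were called in these fits. In tumour cells 4 of 15 fell and 1 rose against P7, where 34.5% of all genes were called. Slc6a11 rose 3.79-fold, with 67.0 ± 20.1 CPM at P7 and 254 ± 85.1 CPM in MB (SD, n = 3; 1.92, FDR 1.25e-04), where astroglial markers summed to 2235 to 4513 CPM at P7 and 1457 to 2026 CPM in MB. Glra2 fell 18.3-fold (-4.20, FDR 5.04e-06), the chloride exporter Slc12a5 10.1-fold (-3.34, FDR 2.30e-04) and Abat, the GABA transaminase, 3.58-fold (-1.84, FDR 3.80e-05). Against P14, where 50.0% of all genes were called, 7 fell and 1 rose, among them Abat (-2.01), Slc12a2 (-0.82) and Slc6a11, the one that rose (1.97).

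Of 11 other interneuron markers, 4 fell and 1 rose from E15.5 to P1, a share near the 46.3% called over all genes. Sst, the somatostatin gene, fell 19.6-fold, with 84.9 ± 29.8 CPM at E15.5 and 4.35 ± 2.60 CPM at P1 (SD, n = 3; -4.29, FDR 1.13e-05), and Gjd2, a neuronal gap junction gene, 2.78-fold (-1.48, FDR 0.00713). Ptprk fell 1.44-fold (-0.53, FDR 0.0213), and Nos1, neuronal nitric oxide synthase, rose 8.11-fold (3.02, FDR 0.00145). Its P1 libraries held 9.70, 16.1 and 69.4 CPM, and without P1 replicate 3 its log2 fold change was 1.72 (FDR 0.00839). Within the set of 9 libraries, where E15.5 has 1 library, the log2 fold change of Nos1 was 2.53. Ptprk lost its call without E15.5 replicate 1 (FDR 0.0693), E15.5 replicate 2, P1 replicate 1 or P1 replicate 2, and Sst stood at -4.88 without P1 replicate 1. Nos1 is also a gene of granule neurons, and it measured 57.2 ± 12.98 CPM at P7 and 87.4 ± 22.2 CPM at P14 (SD, n = 3).

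After P1 the markers that were called fell. Sst was the 1 gene of the 11 called from P1 to P7 (-2.31, FDR 0.0265), where 3.15% of all genes were called. Without P1 replicate 3, 3 were called (5.73% over all genes), and none without any other library of these ages (0.0581% to 1.90%). From P7 to P14, Kit, the receptor of molecular layer interneurons, fell 2.12-fold (-1.08, FDR 0.0126) and Sorcs3 1.89-fold (-0.92, FDR 0.0358). These 2 of 11 were called where 10.3% of all genes were. Neither was called without P14 replicate 2 (0.81% over all genes), and 1 gene of the 11 was called without any other library (1.02% to 6.96%). P14 against P1 called 4 of 11, where 8.94% of all genes were called, all lower: Kit (-1.18), Lypd6 (-1.45), Sorcs3 (-1.34) and Sst (-2.55). Without P1 replicate 3, 7 were called (17.5% over all genes), and 1 without P1 replicate 1 or P14 replicate 2 (1.06% and 0.997%). In tumour cells 7 fell and 2 rose against P7 (34.5% called over all genes), with Ptprk down 3.15-fold (-1.66), Kit 2.87-fold (-1.52), Nos1 5.30-fold (-2.41) and Sst 4.36-fold (-2.13). Kit was at 37.3 ± 10.9 CPM (SD, n = 3) in cells where Pax2 had 1 count. Against P14, 6 fell and 3 rose, with Nxph1 up 2.36-fold (1.24, FDR 0.00131), where 50.0% of all genes were called.

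Markers of the Purkinje cell, the other GABAergic neuron of the cerebellar cortex, which also uses Gad1, Gad2, Slc32a1, Lhx1, Lhx5 and Pvalb, were given beside the 9 genes. The 10 markers summed to 558, 680 and 844 CPM at E15.5, 324, 504 and 520 CPM at P1, 1163, 472 and 649 CPM at P7, 490, 440 and 641 CPM at P14, and 304, 168 and 150 CPM in MB. None was at 0 counts in any group, and in MB 2 of the 10, Pcp2 and Calb1, were under 1 CPM. P7 replicate 1 held the highest Purkinje level of all libraries and the highest Pvalb level after birth (38.3 CPM), whereas P7 replicate 3 was the library with high Pax2, Lhx5 and Lhx1. Of the 10 markers, 2 rose and 2 fell from E15.5 to P1, 2 rose and 1 fell from P1 to P7, 1 fell in P14 against P7 and in P14 against P1, and 7 fell and 1 rose in MB against P7. Over all genes 46.3%, 3.15%, 10.3%, 8.94% and 34.5% were called in these comparisons, in that order. The 1 that rose in MB was Foxp2, at 82.5 ± 35.7 CPM in MB and 17.7 ± 2.82 CPM at P7 (SD, n = 3). The part of Purkinje cells in the levels of the 9 genes was not tested.

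Other cell types moved with age too. Oligodendrocyte markers summed to 51.2 to 57.5 CPM at E15.5, 747 to 1766 CPM at P7, 6323 to 6875 CPM at P14 and 65.8 to 86.3 CPM in MB. Rhombic lip and nuclear neuron markers summed to 278 to 607 CPM at E15.5 and 112 to 245 CPM in every other library. Their part in the results was not tested.

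The genes whose pattern was most like that of Pax2, by Pearson's r of log2 CPM over the 15 libraries, were Lhx5 (0.996), Unc5c (0.992), Slc6a5 (0.990), Tfap2b (0.989) and Hecw1 (0.989). For Gad1 they were Mpped1 (0.991), BC030500 (0.991), Slc6a5 (0.989), Slc32a1 (0.988) and Pax2 (0.988). The libraries fall into groups with the tumour far from the rest, so these values are a description only. For both genes, 3 of the 5 are themselves among the 9.

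Counting limits 4 of the 9 genes. In a newer annotation (GENCODE M21) antisense genes overlap Pax2, Gad1, Slc32a1 and Lhx5, and since no source used here gives the strand setting of the counting, reads of a gene and of its antisense partner cannot be told apart. Gad2, Slc6a5, Lhx1, Tfap2b and Pvalb have no such partner there.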

How the data were processed

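Poly(A) RNA-seq of 15 mouse libraries was used. The authors deposited raw read counts per gene, per transcript and per start site model; per the submitters' processing notes the tools included Trimmomatic, TopHat, StringTie and HTSeq and the build was mm9, with versions and strand setting not given in the sources used here. Between 39.5% and 55.4% of a library's records were counted in genes; summary lines were left out.

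Gene counts were tested with edgeR 4.0.16 (R 4.3.3): filterByExpr (minimum count 10, minimum total 15), TMM, 1 quasi-likelihood fit of all 15 libraries with 1 mean per group (10 residual degrees of freedom), F-tests, and Benjamini-Hochberg adjustment over the 15259 genes kept. The threshold for a call was an FDR under 0.05. CPM used TMM-scaled library sizes. Fits were tested on simulated data. Alternatives were DESeq2 1.42.0, median-ratio size factors, no filter, only the groups compared, the other tables, a replicate block, 1 counting set and leaving out each library.

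The 9 genes and the other lists were chosen with earlier results of these data known. From the 3 GABAergic lists, up to 4 called genes per comparison with the highest mean CPM were named (the best 2 if none was called); other names are marked, and some genes the rule names are not reported here. For likeness, the 5 highest correlations with Pax2 and Gad1 (prior count 2) were taken.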

Additional observations from a re-analysis of the deposited data

How the results depend on the processing

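The number of the 9 genes called at an FDR under 0.05 stayed within 1.5 times its value in all fits of P1 against E15.5, P14 against P7, MB against P7 and MB against P14 that used every library of both groups. The same held for MB against P14 within the set of 9 libraries. P7 against P1 went from 0 to 1 with DESeq2 and without P1 replicate 3 (7.92% and 5.73% over all genes). P14 against P1 went from 2 to 1 with median-ratio size factors, to 4 with DESeq2 and with only the 2 groups compared, and to 5 within the set of 9 libraries. Over all genes 8.76%, 15.7%, 27.6% and 30.3% were called in these fits of P14 against P1. Leaving out 1 library at a time gave 7 to 9 calls for P1 against E15.5, 0 to 1 for P7 against P1, 1 to 4 for P14 against P7, 1 to 4 for P14 against P1, 7 to 9 for MB against P7 and 9 in each fit for MB against P14. Over all genes the shares called ran, in the same order, from 36.6% to 44.5%, 0.0581% to 5.73% and 0.809% to 6.96%. For the last 3 comparisons they ran from 0.997% to 17.5%, 28.3% to 37.8% and 41.8% to 50.4%. The causes were not tested, beyond the smaller number of libraries.

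Signs changed only for genes that were not called: without P7 replicate 3, P7 against P1 gave -0.28 for Pax2 and -0.10 for Lhx5, against up to 0.72 and 0.58 without P1 replicate 1. P14 against P1 for Gad2 gave -0.0016 with the transcript table, -0.0046 within the set of 9 libraries, -0.0042 without P1 replicate 1, -0.15 without P1 replicate 2, -0.07 without P14 replicate 1 -0.08 without P14 replicate 3 and 0.21 without P1 replicate 3. Over the single-gene values of the 9 genes, 651 kept direction and side of the threshold, 35 lost the call, 17 gained it and 8 changed sign.

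With the replicate number as a block, counts of calls were 9, 0, 4, 2, 8 and 9 in the order of the comparisons. Over all genes the shares were 44.1%, 1.63%, 8.09%, 8.49%, 32.4% and 48.0%. In P14 against P1 Pvalb was then called (1.75, FDR 0.0485) and Pax2 was not (-1.31, FDR 0.0567); in P14 against P7 Gad1 was called (-0.77, FDR 0.0429) and Slc6a5 was not (-0.88, FDR 0.0506). The labels do not tie the numbers to a shared animal or batch: over 30 same-numbered pairs the correlation of deviations ran from -0.31 to 0.33, with 7 over 0.1, and 4 of 15 libraries correlated best with their own number. The table of start site models held 6 of the 9 genes, so no count is given for it. For the other lists, with only the 2 groups compared, lineage factors called went from 5 to 11 in P14 against P7, from 4 to 10 in P14 against P1 and from 2 to 0 in P7 against P1, other markers from 9 to 5 in MB against P7 and from 1 to 0 in P7 against P1, and pathway genes from 1 to 3 in both P14 comparisons. Over all genes those fits called 25.9% in P14 against P7, 27.6% in P14 against P1, 1.39% in P7 against P1 and 25.1% in MB against P7. DESeq2 raised lineage factors from 4 to 7 in P14 against P1, other markers from 1 to 2 in P7 against P1, and pathway genes from 0 to 1 in P7 against P1 and from 1 to 2 in both P14 comparisons. It called 15.7% of all genes in P14 against P1, 7.92% in P7 against P1 and 16.0% in P14 against P7. Pathway calls went from 1 to 0 in P14 against P7 with median-ratio size factors, no filter, the transcript table and the replicate block, and in P14 against P1 with the block. Over all genes 7.63% to 10.7% were called in these fits of P14 against P7, and 8.49% in P14 against P1. Lineage calls in P7 against P1 went from 2 to 1 with no filter and to 0 with the block, with 2.23% and 1.63% over all genes. No alternative moved the median of all genes by more than 0.1. The intervals given for ratios to MB cover counting error only and leave out the spread between libraries. For Pvalb in MB against P7, leaving out 1 library moved the log2 fold change between -2.66 and -1.28.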
